A study of Mus musculus with 6 samples.

Results

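The genes examined here encode peptides that neurons of the hypothalamus release as hormones or transmitters. They were chosen by name from 10 listed symbols (Oxt, Avp, Crh, Pomc1, Pomc, Trh, Agrp, Cartpt, Hcrt and Pmch), and every probe carrying one of these symbols was taken, whatever its values. The array table held 9 such probes, 1 for each of 9 genes, out of 25697 probes in all. Pomc1 is an older symbol of Pomc and had no row of its own.

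RNA came from the whole brain of male FVB mice (FVB/N in the methods) at postnatal day 6 and was hybridized to Illumina MouseRef-8 v2.0 bead arrays, 3 per genotype, each from a separate mouse. All 6 mice carried a single-copy transgene for FLAG-tagged human SRY, the sex-determining factor of the Y chromosome, integrated at the H11 locus. In hSRY-OFF mice the transgene was unrecombined, so that the ubiquitous CAG promoter drove the red fluorescent protein DsRed2 and not SRY. In hSRY-ON mice a floxed DsRed2 block had been removed in the early embryo by Cre recombinase carried over from a Ddx4-Cre mother, which placed SRY and EGFP under the same promoter. According to the methods the hSRY-ON mice profiled had not inherited Ddx4-Cre themselves. The genotypes therefore differed in the fluorescent protein as well as in SRY, and SRY was not restricted to any brain region or cell type. The paper also describes hSRY-ON pups as growing more slowly than control littermates, with minimal suckling, a lack of milk in the stomach and smaller brains. It calls the profiled controls age-matched and does not state whether they were littermates. The part of these differences in the values below was not tested.

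Hypothalamic peptides are made as precursors that are cut in dense-core granules by prohormone convertases. Vasopressin (Avp) and oxytocin (Oxt) come from magnocellular neurons of the paraventricular and supraoptic nuclei, which send their axons to the posterior pituitary. Crh and Trh neurons release their peptides to the anterior pituitary and so set adrenal and thyroid activity, although both genes are also expressed outside the hypothalamus. In the arcuate nucleus Agrp neurons promote feeding, while Pomc neurons, many of which also express Cartpt, restrain it. Neurons of the lateral hypothalamus make hypocretin (Hcrt), which sustains wakefulness, or melanin-concentrating hormone (Pmch).

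The arrays were similar in brightness, with median signals of 200.2 to 219.8 and with 53.8% to 55.9% of probes detected above background, defined here as a detection p-value (the share of negative controls at least as bright) under 0.05. Principal components of the tested probes separated the genotypes on the first axis (42.8% of the variance), while the second (18.5%) set hSRY-ON array 3 apart at -22.2, with the other arrays between 0.0453 and 8.92. On the first axis hSRY-ON array 1 lay furthest from the hSRY-OFF arrays, at 22.2, followed by arrays 2 (14.1) and 3 (9.75). Of 18 general brain markers, 16 were detected well enough to be tested, and 2 of them (Pcp2 and Gfap) were called lower and 0 higher in hSRY-ON, beside 2.39% of 10548 tested genes called in either direction. The probes for Snap25 and Calb1, which neurons express strongly, were below background on all 6 arrays, so an undetected probe on this platform does not show that its gene was silent.

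Of the 9 peptide probes, 7 gave a signal that could be compared. The probes for Avp, Oxt, Trh, Cartpt, Hcrt and Pmch were detected on all 6 arrays, and that for Agrp on 5. Per array, 7 of the 9 probes were detected on every array except hSRY-ON array 2, which detected 6. Under a stricter detection p-value of 0.01, Agrp was detected on 3 arrays and the 6 other genes still on all 6. As whole-brain RNA was measured, fewer cells of a type and less RNA per cell cannot be told apart in any value below.

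**Figure D1:**
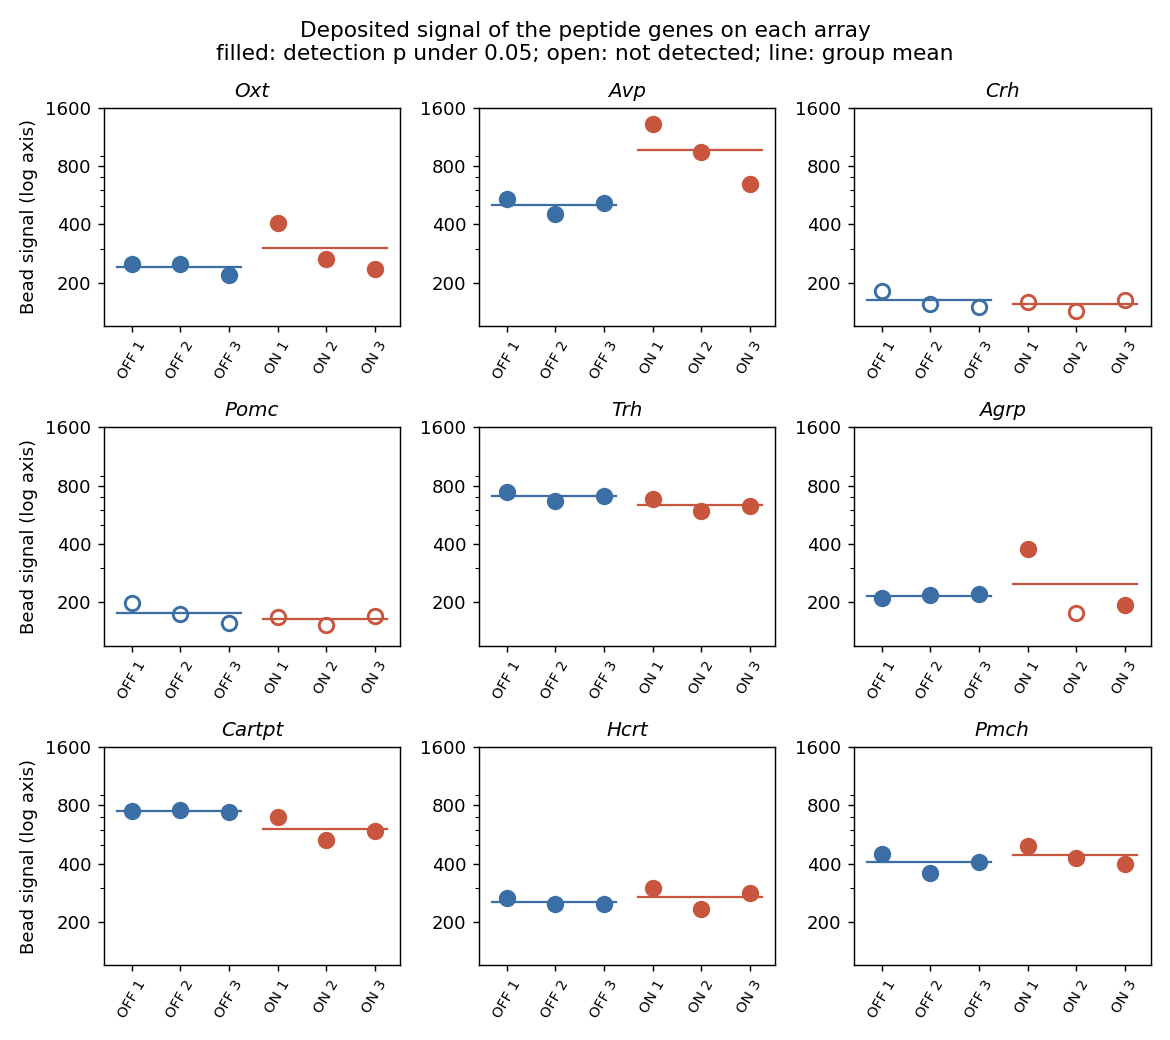
Deposited bead signal (log axis, no unit) of each peptide gene on the 3 hSRY-OFF arrays (blue) and the 3 hSRY-ON arrays (red). Filled points were detected at a detection p-value under 0.05, open points were not, and lines are group means. Avp lay between 454.5 and 544.0 in hSRY-OFF and between 645.9 and 1315.1 in hSRY-ON, whereas all points of Crh and Pomc are open.

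Of the 7 tested probes, 0 were called different between hSRY-ON and hSRY-OFF by limma at an adjusted p under 0.05, where 2.17% of all 14215 tested probes were called (0.844% higher and 1.32% lower). At an unadjusted p under 0.05 there were 2 of 7 (Avp and Cartpt), beside 20.9% of all tested probes. Across the 7 the median log2 fold change was 0.27, with 5 positive and 2 negative, beside a median of 0.0048 over all tested probes. The values of the genotypes did not overlap for 1 of the 7, Avp, whereas this held for 27.7% of all tested probes. Log2 fold changes are given throughout as hSRY-ON minus hSRY-OFF on the normalized log2 signal.

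Avp, the precursor of vasopressin, the hormone of water balance, had the largest difference of the tested peptide genes. Its deposited signal was, in array order, 544.0, 454.5 and 518.6 in hSRY-OFF and 1315.1, 939.6 and 645.9 in hSRY-ON. All hSRY-ON arrays lay above all hSRY-OFF arrays, but the hSRY-ON arrays were themselves spread widely. On the normalized log2 scale the hSRY-OFF mean was 8.43 ± 0.16 and the hSRY-ON mean 9.63 ± 0.57 (SD, n = 3 each). The log2 fold change was 1.20 (SE 0.27, 95% confidence interval 0.57 to 1.83), which is 2.30-fold with an interval of 1.49 to 3.56, at an unadjusted p of 0.00267 and a limma adjusted p of 0.068. Avp thus missed the threshold over all probes. It passed in 6 of 16 other fits. Without hSRY-ON array 3 the log2 fold change was 1.51 (limma adjusted p 0.0219), in a fit that called 2.98% of all probes, and without background correction 0.94 (limma adjusted p 0.00204), in one that called 9.26%. The other calls came with normexp fitted on the signals (limma adjusted p 0.0148, 6.05% of all probes called), with stricter detection on all arrays (0.0329, 6.07%), with array weights (0.0376, 3.38%) and with a prior that follows the signal (0.000182, 10.1%), a setting chosen after seeing the data. The planned form of that prior, made robust as well, did not call Avp (limma adjusted p 0.0617), although it called 10.2% of all probes. Without hSRY-ON array 1 the log2 fold change of Avp was 0.94 (limma adjusted p 0.133), in a fit that called 1 probe in all. Over all 16 fits its limma adjusted p ranged from 0.000182 to 0.177.

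Oxt encodes oxytocin, which acts in parturition, milk ejection and social behaviour, and its gene neighbours Avp. In the RefSeq annotation of GRCm38.p6, Oxt lies at chr2:130574519-130577054 on the plus strand and Avp at chr2:130580620-130582588 on the minus strand, so that they are transcribed towards each other across 3565 bases. The signal of Oxt was 249.5, 251.0 and 219.9 in hSRY-OFF and 405.7, 267.0 and 235.5 in hSRY-ON, in array order. Here the groups overlapped, since hSRY-ON array 3 lay below 2 hSRY-OFF arrays and only hSRY-ON array 1 stood clearly above the rest. The log2 fold change was 0.73 (SE 0.35, 95% confidence interval -0.10 to 1.55, limma adjusted p 0.284), and it was 0.32 without hSRY-ON array 1 (limma adjusted p 0.473). No difference could be called for Oxt, and its interval still includes changes as large as that of Avp.

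Because Avp and Oxt are neighbours and had the largest positive differences, the 250 bases ahead of the start site that the promoter table gives each gene are shown, from RefSeq on GRCm38.p6 (the C57BL/6J reference, not FVB), written 5′ to 3′ on the gene's own strand. Capitals mark matches on either strand to AACAAT, the core bound by SRY and related SOX factors, to CACGTG, an E-box, to TGACCT, a nuclear receptor half-site, and to TATAAA. The Avp window is chr2:130582589-130582838 on the minus strand and the Oxt window chr2:130575919-130576168 on the plus strand. The start that the promoter table uses for Oxt lies inside the gene interval given above, which spans several transcript models.
Avp: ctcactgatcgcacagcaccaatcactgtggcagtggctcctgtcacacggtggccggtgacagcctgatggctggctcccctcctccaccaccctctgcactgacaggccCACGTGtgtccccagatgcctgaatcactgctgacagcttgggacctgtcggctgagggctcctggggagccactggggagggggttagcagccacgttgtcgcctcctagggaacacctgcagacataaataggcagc
Oxt: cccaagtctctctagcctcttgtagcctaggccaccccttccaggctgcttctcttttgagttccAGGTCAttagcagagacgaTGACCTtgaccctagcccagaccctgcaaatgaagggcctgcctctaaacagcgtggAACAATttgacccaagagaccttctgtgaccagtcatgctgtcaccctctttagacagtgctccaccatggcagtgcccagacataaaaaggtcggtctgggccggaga
The Avp window held 1 CACGTG, from 139 to 134 bases ahead of the start, and no match to the other motifs. The Oxt window held AACAAT once, from 109 to 104 bases ahead of the start, and TGACCT or its reverse complement at 2 places. Promoter entries were found for 7 of the 9 genes, all but Crh and Agrp, and AACAAT or ATTGTT occurred in 2 of these 7 (Oxt and Pmch), beside 9.42% of all 32851 promoter windows of this length. Among the same 7, CACGTG occurred in Avp, beside 6.02% of all windows. TGACCT or AGGTCA occurred in Oxt, Pomc and Trh, beside 14.0%, and TATAAA or TTTATA in Pomc, Hcrt and Pmch, beside 12.4%. These matches describe letters only.

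None of the peptide genes of the arcuate nucleus was called. Agrp, which antagonizes melanocortin receptors, gave signals of 211.1, 219.1 and 220.7 in hSRY-OFF and 376.9, 176.8 and 194.7 in hSRY-ON. A single hSRY-ON array was far above the 3 hSRY-OFF arrays while both others lay below them, and on hSRY-ON array 2 the probe was not detected (detection p 0.0977). The mean log2 fold change of 0.17 (SE 0.63, 95% confidence interval -1.32 to 1.66, limma adjusted p 0.909) therefore describes none of the arrays. It turned to -0.64 without hSRY-ON array 1, at an unadjusted p of 0.023 and a limma adjusted p of 0.227.

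Cartpt, the precursor of the CART peptides, had the largest negative difference of the 7 genes but was not called. Its signals were 751.1, 751.9 and 737.1 in hSRY-OFF and 692.3, 531.7 and 588.6 in hSRY-ON, so the deposited signals of the groups did not overlap, as was true of 21.6% of all tested probes. After normalization they touched, because hSRY-ON array 1 (9.05) came just above hSRY-OFF array 1 (9.04). The log2 fold change was -0.33 (SE 0.12, 95% confidence interval -0.62 to -0.04) at an unadjusted p of 0.0311 and a limma adjusted p of 0.189, and it stayed between -0.43 and -0.23 in 16 other fits, in none of which it was called.

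Pomc, whose precursor yields ACTH, melanocortins and beta-endorphin, was below background throughout. Its signals were 199.2, 173.7 and 157.7 in hSRY-OFF and 168.2, 153.1 and 169.5 in hSRY-ON, with detection p-values of 0.0639 to 0.663. The median of the 9796 probes never detected was 158.0 to 170.8 on the same arrays, so the Pomc signals lay near those of undetected probes and give no fold change. The anterior pituitary, which also makes Pomc and could be carried along under a dissected brain, was looked for with 14 marker genes. Of these, 11, among them Prl, Cga, Tshb, Lhb, Fshb and Tbx19, were below background on all arrays at every probe. The summed signal over all probes of the list was 3250 to 3567 in hSRY-OFF and 3349 to 3669 in hSRY-ON. Gh, growth hormone, was detected on 3 arrays, with log2 signals of 5.53, 4.89 and 4.86 in hSRY-OFF and 6.57, 6.44 and 5.10 in hSRY-ON. Its log2 fold change was 0.94 (SE 0.40, limma adjusted p 0.236). Gh was thus highest on the same array as Avp and Oxt, and its part in their values was not tested.

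The releasing hormones showed no called difference either. Crh, corticotropin-releasing hormone, gave 182.3, 156.1 and 150.0 in hSRY-OFF and 159.7, 142.5 and 162.9 in hSRY-ON. With detection p-values of 0.229 to 0.966 it was below background on all 6 arrays and has no fold change. Trh, thyrotropin-releasing hormone, was clearly detected, at 740.5, 664.0 and 709.3 in hSRY-OFF and 686.5, 593.8 and 625.9 in hSRY-ON. These ranges overlapped, and the log2 fold change of -0.12 (SE 0.09, limma adjusted p 0.492) had the narrowest interval of the 7 genes, from -0.34 to 0.09.

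The peptide genes of the lateral hypothalamus were not called. Hcrt gave 264.8, 246.9 and 247.1 in hSRY-OFF and 298.5, 233.3 and 281.0 in hSRY-ON. Arrays 1 and 3 of hSRY-ON lay above and array 2 below all hSRY-OFF arrays, so that the SD of normalized log2 signals was 0.36 in hSRY-ON against 0.04 in hSRY-OFF. Its log2 fold change was 0.30 (SE 0.17, 95% confidence interval -0.11 to 0.70, limma adjusted p 0.367), and it was 0.50 without hSRY-ON array 2 (limma adjusted p 0.0768) and 0.18 without hSRY-ON array 1 (limma adjusted p 0.656). Pmch, which promotes feeding and sleep, gave 450.7, 359.7 and 407.3 in hSRY-OFF and 495.1, 429.9 and 400.2 in hSRY-ON. The groups overlapped at a log2 fold change of 0.27 (SE 0.13, 95% confidence interval -0.03 to 0.58, limma adjusted p 0.277).

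**Figure D2:**
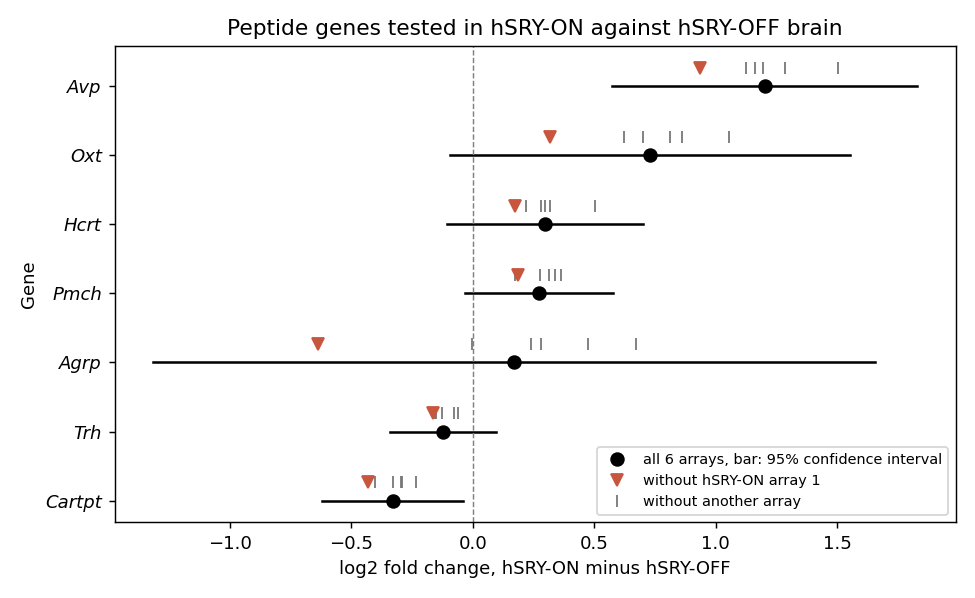
Log2 fold change (hSRY-ON minus hSRY-OFF, horizontal axis) of the 7 tested peptide genes (vertical axis). Black points and bars are the estimate from all 6 arrays and its 95% confidence interval, red triangles the estimate without hSRY-ON array 1 and grey ticks that without another array. Only the intervals of Avp (0.57 to 1.83) and Cartpt (-0.62 to -0.04) leave out 0, and Agrp turns from 0.17 to -0.64 without hSRY-ON array 1.

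The hSRY-ON mice differed among themselves, with hSRY-ON array 1 often the highest. There, 5 of the 7 tested genes (Avp, Oxt, Agrp, Hcrt and Pmch) had their highest normalized signal on hSRY-ON array 1, whereas 20.5% of all tested probes were highest there. Relative to the hSRY-OFF mean that array was higher by 1.73 for Avp, 1.55 for Oxt and 1.78 for Agrp on the log2 scale. Trh and Cartpt, in contrast, lay at -0.04 and -0.13 on the same array. This count was made after the values were seen and is a description. The SD was larger in hSRY-ON for 5 of the 7 genes, beside 59.1% of all tested probes.

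**Figure D3:**
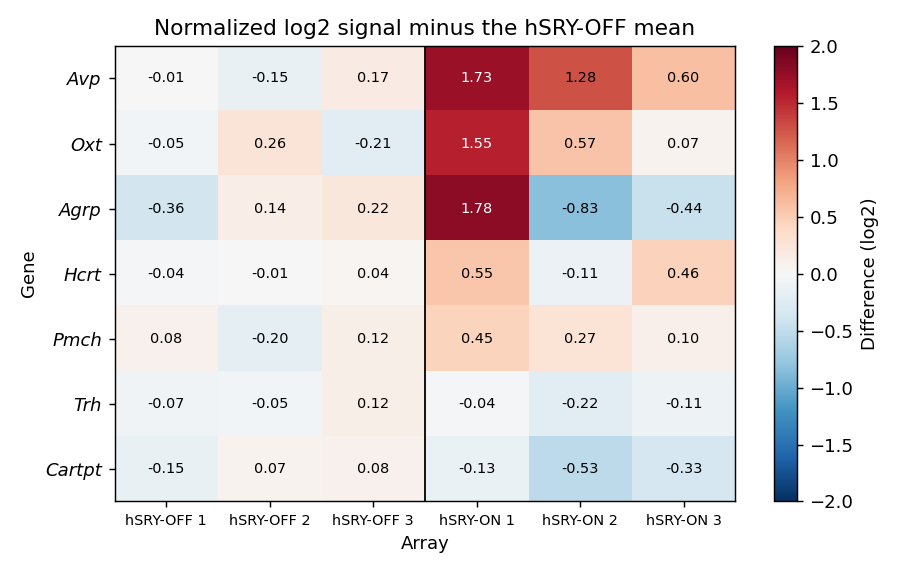
Normalized log2 signal of each tested peptide gene (rows) on each array (columns), minus the mean of the 3 hSRY-OFF arrays, with red for higher and blue for lower. On hSRY-ON array 1 the values are 1.73 for Avp, 1.55 for Oxt and 1.78 for Agrp, whereas on hSRY-ON array 3 they are 0.60, 0.07 and -0.44.

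No peptide gene was called, so the profile most like a member's was sought for the one that varied most over the 6 arrays, which was Agrp (SD 0.92). By the root mean square difference of centred log2 signals over the 6 arrays, the nearest of all tested probes were Vasp (0.49), Myocd (0.52) and Scmh1 (0.52), beside a median of 0.85 over all tested probes. On hSRY-ON array 1 they reached 6.80, 6.35 and 6.88, above each of their own hSRY-OFF arrays. This follows from choosing them for likeness to Agrp, which was highest on that array.

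Receptors for these peptides are spread through the brain, and 1 of them changed. Of 13 listed receptor genes, 12 had a probe and 8 were tested, with 0 called higher, 1 lower and 7 not called, beside 2.39% of all tested genes, with 1 probe per gene counted. Crhr1, the main brain receptor of CRH, fell. Its normalized log2 signals were 7.60, 7.70 and 7.72 in hSRY-OFF and 7.08, 7.12 and 6.84 in hSRY-ON, and every hSRY-ON array lay below every hSRY-OFF array. The log2 fold change was -0.66 (SE 0.10, limma adjusted p 0.033), and its other probes gave -0.56 (limma adjusted p 0.143) and -0.45 (limma adjusted p 0.242). In the fits without 1 array the call of Crhr1 remained only without hSRY-ON array 3 (limma adjusted p 0.0339), and it was lost without hSRY-OFF array 1 (0.0962), 2 (0.115) or 3 (0.104) and without hSRY-ON array 1 (0.0848) or 2 (0.0698). Each fit that lost it called at most 1 probe in all, whereas the fit without hSRY-ON array 3 called 2.98%. In the fits that lost the call, the log2 fold change of Crhr1 was -0.71 to -0.64.

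The receptors of the other peptides were not called. Mc4r, the melanocortin receptor through which Agrp acts on feeding, was at 7.52 ± 0.07 and 7.75 ± 0.17 (SD, n = 3) in the OFF and ON genotypes (log2 fold change 0.24, limma adjusted p 0.251). Avpr1a, a vasopressin receptor of the brain, was at 8.08 ± 0.17 and 8.25 ± 0.11 (SD, n = 3; log2 fold change 0.17, limma adjusted p 0.431). Mchr1, the receptor of melanin-concentrating hormone, gave 0.21 (limma adjusted p 0.384) and Hcrtr1, a hypocretin receptor, -0.17 (limma adjusted p 0.449). The probes for Avpr1b, Avpr2, Trhr2 and Hcrtr2 were below background on all 6 arrays, and Oxtr was not analysed here.

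The machinery that cuts and stores peptide precursors showed no called change. Of 15 listed genes, 14 had a probe and 12 were tested. At an adjusted p under 0.05 limma called 0 of them, and at an unadjusted p under 0.05 there were 1 positive and 2 negative, beside 2.39% and 21.5% of all tested genes. Pcsk2, a prohormone convertase, had a log2 fold change of 0.35 at its probe of highest mean normalized signal (SE 0.11, limma adjusted p 0.145), with 0.26, 0.11 and -0.06 at its other probes. Cadps2, a factor of dense-core granule release, gave -0.34 (SE 0.09, limma adjusted p 0.100) and Prcp, a peptidase that inactivates a melanocortin, -0.34 (SE 0.14, limma adjusted p 0.215). The granule protein Scg2 gave 0.21 (limma adjusted p 0.241). Pcsk1, the convertase that makes ACTH, was below background on all arrays.

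Further peptide genes, many of them expressed well beyond the hypothalamus, were then compared. Of 21 listed genes, 19 had a probe and 13 were tested, with 1 called higher, 0 lower and 12 not called, beside 2.39% of all tested genes. Grp, gastrin-releasing peptide, rose from 7.54, 7.23 and 7.76 in hSRY-OFF to 8.38, 8.65 and 8.20 in hSRY-ON (normalized log2 signal). The groups did not overlap and the log2 fold change was 0.90 (SE 0.17, limma adjusted p 0.0479), which is close to the threshold. Of the fits without 1 array, the call of Grp was kept only without hSRY-ON array 3 (limma adjusted p 0.0453), while without any of the 5 other arrays the adjusted p was 0.0906 to 0.126. Those 5 fits each called at most 1 probe in all, and the log2 fold change of Grp in them was 0.76 to 1.02. Testing all probes without the detection filter also ended both calls, at limma adjusted p-values of 0.0737 for Grp and 0.0528 for Crhr1. That fit called 0.479% of all probes. Nts, the neurotensin precursor, went from 7.01 ± 0.25 to 7.77 ± 0.25 (SD, n = 3) without passing (log2 fold change 0.76, SE 0.17, limma adjusted p 0.0679). Galanin (Gal) gave 0.34 (SE 0.21, limma adjusted p 0.394) and cholecystokinin (Cck) -0.12 (SE 0.08, limma adjusted p 0.426). Npy, which Agrp neurons release as well and which was singled out after its values were seen, was at 12.01 ± 0.07 and 12.12 ± 0.12 (SD, n = 3), a log2 fold change of 0.10 with an interval of -0.11 to 0.32 (limma adjusted p 0.567). The probes for Kiss1, Tac2, Npvf, Nms, Ucn and Ucn3 were below background on every array.

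**Figure D4:**
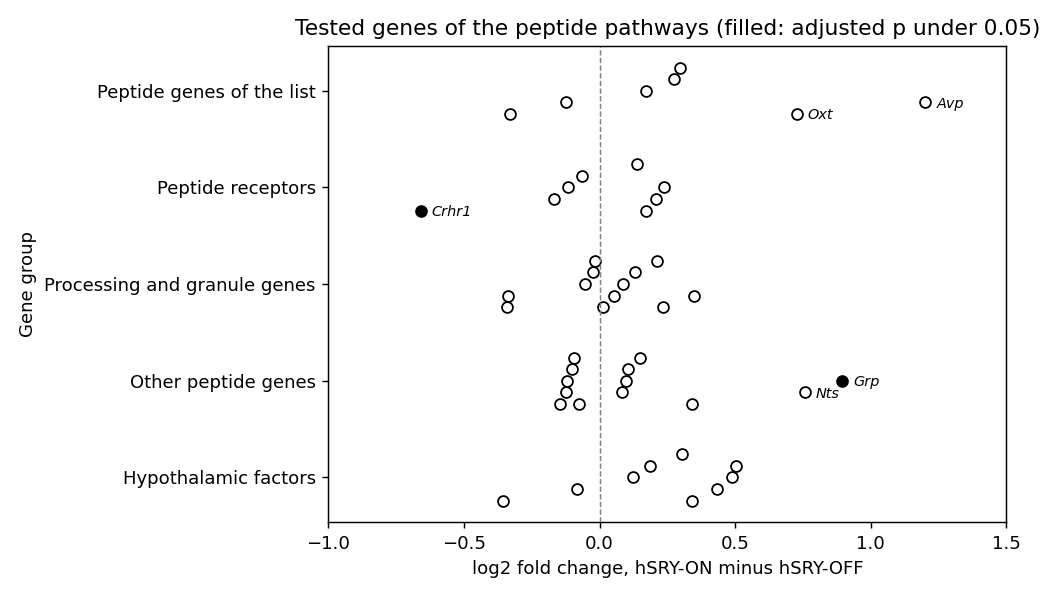
Log2 fold change (hSRY-ON minus hSRY-OFF, horizontal axis) of each tested gene, by gene group (vertical axis), with filled points for genes called at an adjusted p under 0.05. The filled points are Crhr1 (-0.66) and Grp (0.90), and Avp (1.20) lies furthest from 0 although it was not called.

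Transcription factors with roles in hypothalamic development were also compared. Several of those tested, such as Isl1 and Nkx2-2, are expressed elsewhere too, so their values do not measure the amount of hypothalamic tissue. Of 24 listed factors, 22 had a probe and 9 were tested, with 0 called by limma (4 positive and 1 negative at an unadjusted p under 0.05), beside 2.39% and 21.5% of all tested genes. Their median log2 fold change was 0.30, beside 0.00041 over all tested genes. Isl1, a factor of arcuate and striatal neurons, was at 9.51, 9.37 and 9.55 in hSRY-OFF and 10.20, 9.77 and 9.75 in hSRY-ON, a log2 fold change of 0.43 (SE 0.14, limma adjusted p 0.139). Lhx9, a factor of diencephalic neurons, gave 0.49 (SE 0.10, limma adjusted p 0.0611) and Arnt2, which pairs with Sim1 in neuroendocrine neurons, 0.50 (SE 0.15, limma adjusted p 0.120). Nkx2-2, a factor of the ventral neural tube and of oligodendrocyte precursors, gave -0.36 (SE 0.10, limma adjusted p 0.120).

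The factors most particular to neuroendocrine neurons gave little to read. Sim1 and Otp, which specify vasopressin and oxytocin neurons, and Rax were below background on every array, and Nkx2-1, the regional factor of the ventral hypothalamus, was detected on 3 arrays. The log2 signal of Nkx2-1 was 5.06, 5.52 and 5.27 in hSRY-OFF and 5.96, 5.54 and 5.38 in hSRY-ON (log2 fold change 0.34, limma adjusted p 0.321). Together with Isl1 and Lhx6, Nkx2-1 had its highest value on hSRY-ON array 1. This makes 3 of 9 tested factors, beside 20.7% of all tested genes. For Lhx6, detected on 4 arrays, that value was 5.92, against 5.89 on hSRY-OFF array 3. Nkx2-1 and Lhx6 were singled out after their values were seen. The part of unequal hypothalamic tissue in the values of Avp, Oxt and Agrp was not tested.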

How the data were processed

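RNA of 6 brains was labelled and hybridized to Illumina MouseRef-8 v2.0 arrays. The authors deposited a mean bead signal intensity and a detection p-value for each probe and array, not normalized between arrays, with no background correction stated. Their labels name limma and their methods TCC, without settings. The members, lists and named genes were chosen with earlier results of these data known: all probes of the listed symbols, and from the other lists the called genes, up to 4 with the lowest unadjusted p, receptors of members and undetected genes.

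In R 4.3.3 with limma 3.58.1, intensities were corrected with normexp using controls inferred from the detection p-values (offset 16), quantile normalized and put on the log2 scale. Probes detected (p under 0.05) on at least 3 of 6 arrays were tested, 14215 of 25697, with lmFit and eBayes (two-sided, genotype as the only term) and Benjamini-Hochberg adjustment over all tested probes. Other lists were counted by the probe of highest mean per gene, and 2 of their symbols were matched as synonyms in the RefSeq table of GRCm38.p6. One gene of the pituitary marker list is not reported here. The fit was tested on simulated data. The number of arrays, 3 per genotype, limits the precision. Figures were drawn with matplotlib 3.10.9.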

Additional observations from a re-analysis of the deposited data

How the results depend on the processing

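The count of called peptide genes, 0, became 1 without background correction, 1 with normexp fitted on the signals (offset 50), 1 with the filter set to detection on all 6 arrays at 0.01, 1 with array weights and 1 with a prior that follows the signal, and stayed 0 when that prior was also robust. It was 2 at an unadjusted p under 0.05. It lay between 0 and 1 when an array was left out. The called gene was Avp in each fit at an adjusted p under 0.05. The prior that is not robust and the unadjusted rule were chosen after seeing the data. The direction of Avp, Oxt, Hcrt, Pmch, Trh and Cartpt was kept in all 16 other fits, whereas Agrp ranged from -0.64 to 0.67 when an array was left out and turned negative without hSRY-OFF array 1 (-0.0046) and without hSRY-ON array 1 (-0.64). The count over the receptor, processing, peptide and factor lists, 2, became 8 without background correction and 11 with a prior that follows the signal and is robust, and was 0 to 2 when an array was left out. Over all probes the 308 calls became 1317 without background correction, 860 with normexp on the signals, 123 without a filter, 705 with the stricter detection, 1447 with the prior that follows the signal and is robust, 1434 with the one that is not robust, 480 with array weights and 0 to 417 without an array. Deviations of arrays with the same replicate number correlated at 0.040, 0.029 and 0.025. These small positive values cannot decide whether the numbers pair the mice, because a weak shared effect could also give them. With the replicate block 0 peptide genes and 0 probes in all were called. Of 54 values of the 9 probes, 41 were detected at a detection p-value under 0.05 and 39 under 0.01. Signals near background limit Agrp, Crh and Pomc. The causes of these differences were not tested.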
